A study of Mus musculus with 58 samples.

Results

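Trim54, Megf6, Xdh, Igfn1, BC006965 and Bche were followed in the prefrontal cortex of mice lacking 1 copy of Arid1b. These 6 genes of the 18088 in the expression table were chosen by their difference between heterozygous (HT) and wild-type (WT) libraries under vehicle. The vehicle values are therefore given as a description, and the threshold there only shows where the choice fell. Differences were tested only between libraries from drug-treated mice. The fit took its estimate of the spread from all 58 libraries, so the vehicle libraries entered those p-values through the spread. Fits of only the libraries compared are among the alternatives. The name "shifted by Arid1b loss alone" refers to the treatment arm in which the genes were picked, that is, Arid1b loss with no drug. The vehicle values do not by themselves show that any of the 6 changed only there.

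The mice were of the C57BL/6N strain and carried either 1 disrupted copy of Arid1b (HT) or none (WT). They received vehicle, fluoxetine (a serotonin reuptake inhibitor) or lithium (a mood stabilizer) through their mothers' milk from postnatal day 3 to day 24, for 3 weeks, and cortex was taken on day 25. All groups thus shared the strain, the age and the route, and the dose that reached each pup is not given in the sources used here. Messenger RNA was sequenced in 58 libraries, which formed 12 groups of genotype, treatment and sex. There were 4 libraries each of HT females and WT males under vehicle and 5 in each of the other groups. The labels name no litter or batch and do not tie libraries to separate mice. The p-values therefore measured only the spread between these libraries, which may be technical. A drug in milk reaches a whole litter, so drug and litter cannot be told apart.

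Arid1b encodes a large subunit of the BAF complex, which moves nucleosomes with energy from ATP and opens or closes regulatory DNA. Loss of 1 copy of the human gene is a known cause of intellectual disability and Coffin-Siris syndrome. The 6 genes have no common pathway. Trim54 encodes a muscle RING-finger ubiquitin ligase of the sarcomere, Megf6 a protein with many EGF-like repeats, and Xdh xanthine dehydrogenase, which makes uric acid at the end of purine breakdown. Igfn1 encodes an immunoglobulin-like and fibronectin domain protein first described in skeletal muscle, Bche butyrylcholinesterase, which splits choline esters, and BC006965 is a long non-coding RNA.

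By GENCODE M21 (GRCm38) the genes lie on 6 chromosomes. Trim54 (ENSMUSG00000062077) spans chromosome 5, 31116712 to 31137630, plus strand. Megf6 (ENSMUSG00000057751) spans chromosome 4, 154170730 to 154275713, plus strand. Xdh (ENSMUSG00000024066) spans chromosome 17, 73883895 to 73950196, minus strand, 68.9 Mb from Arid1b on the same chromosome. Igfn1 (ENSMUSG00000051985) spans chromosome 1, 135953578 to 136006342, minus strand. BC006965 (ENSMUSG00000041674) spans chromosome 11, 112663927 to 112781976, minus strand. Bche (ENSMUSG00000027792) spans chromosome 3, 73635808 to 73708415, minus strand. The end of Trim54 overlaps an antisense gene, Gm15469. The strand setting of the counting is not given in the sources used here, so reads of that pair might not be separated.

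Promoter sequences from RefSeq (GRCm38.p6; 250 bases before to 50 bases after the start, 5′ to 3′ on the gene's strand) were matched for 5 of the 6 genes, all but Xdh. Those of Trim54 and Megf6, which were higher in HT vehicle libraries, and of Igfn1 and Bche, which were lower, are shown because these pairs lay on opposite sides of WT. They stand at chr5:31116362-31116661 (plus strand), chr4:154170463-154170762 (plus strand), chr1:136006293-136006592 (minus strand) and chr3:73708366-73708665 (minus strand). Capitals mark matches on either strand to the CCAAT box (CCAAT, or ATTGG on the other strand), the TATA box (TATAAA) and the AP-1 motif (TGANTCA).
Trim54: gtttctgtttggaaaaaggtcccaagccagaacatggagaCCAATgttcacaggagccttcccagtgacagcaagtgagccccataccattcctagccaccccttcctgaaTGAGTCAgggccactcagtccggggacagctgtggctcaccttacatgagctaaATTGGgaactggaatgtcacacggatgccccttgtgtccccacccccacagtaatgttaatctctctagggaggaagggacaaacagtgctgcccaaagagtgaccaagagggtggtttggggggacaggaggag
Megf6: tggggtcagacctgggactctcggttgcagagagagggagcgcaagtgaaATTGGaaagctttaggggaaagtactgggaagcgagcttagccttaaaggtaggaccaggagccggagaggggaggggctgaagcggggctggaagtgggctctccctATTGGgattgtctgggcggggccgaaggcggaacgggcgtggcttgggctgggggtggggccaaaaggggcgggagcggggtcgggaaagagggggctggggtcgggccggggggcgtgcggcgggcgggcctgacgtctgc
Igfn1: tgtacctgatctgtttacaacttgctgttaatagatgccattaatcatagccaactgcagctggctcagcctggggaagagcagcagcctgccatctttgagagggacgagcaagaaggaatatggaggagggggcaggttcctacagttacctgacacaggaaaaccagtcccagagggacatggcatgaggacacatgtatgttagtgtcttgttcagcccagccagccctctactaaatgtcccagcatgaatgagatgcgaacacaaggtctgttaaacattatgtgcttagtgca
Bche: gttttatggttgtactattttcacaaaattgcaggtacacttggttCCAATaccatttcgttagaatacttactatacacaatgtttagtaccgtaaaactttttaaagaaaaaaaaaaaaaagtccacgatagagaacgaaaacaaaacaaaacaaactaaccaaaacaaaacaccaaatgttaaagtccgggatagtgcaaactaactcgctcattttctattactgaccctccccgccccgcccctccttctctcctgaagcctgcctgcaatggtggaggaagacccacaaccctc

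The Trim54 window held 2 CCAAT matches and 1 AP-1 match, that of Megf6 held 2 CCAAT matches, that of Bche 1, and that of Igfn1 none of the motifs. The RefSeq window of BC006965 (chr11:112711307-112711606, minus strand) held 1 TATA match. It lies inside the annotated span of the gene, away from its outermost start. Of 32851 mouse promoters of this length, 37.4% held a CCAAT match, 13.6% a TATA match and 7.81% an AP-1 match. CpG dinucleotides numbered 20 in Megf6, 10 in BC006965, 8 in Bche, 2 in Trim54 and 2 in Igfn1, against a median of 7 over all promoters. Each pair thus included a window with 2 CpGs and a window above the median.

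Libraries held 24.0 to 36.7 M reads. Arid1b was lower in HT libraries under each treatment. It averaged 2018 ± 61.2 normalised reads in HT and 2556 ± 80.6 in WT under vehicle (SD, n = 9 each), and over both drugs it fell by 0.30 on the log2 scale (SE 0.024, limma adjusted p = 9.31e-13, n = 20 each). All 5 markers of excitatory neurons were present in every library, with a sum of 131500 to 199800 normalised reads. Summed markers of olfactory areas ranged from 322 to 10390 over all libraries and those of oligodendrocytes from 34230 to 217700. The library labelled HT lithium female replicate 4 goes against its label: it had 3.74 normalised reads of Xist, where the other female libraries had at least 16830, and 2.80 of the Y-linked Ddx3y, where male libraries had at least 963. It thus lacked both, and its sex was not settled. HT lithium male replicate 5 held choroid plexus markers (9753 normalised reads summed, at most 312 elsewhere), and HT fluoxetine male replicate 1 had the lowest slope of expression on transcript GC content (-0.345 log2 units per 10 percentage points). Values without these 3 libraries are given with the results on each gene.

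All 6 genes passed the filter on low values (a mean of at least 10). Levels per kilobase of the longest transcript, averaged over 58 libraries, were 50.1 normalised reads for Igfn1, 42.4 for BC006965, 30.7 for Megf6, 29.7 for Bche, 10.8 for Trim54 and 7.55 for Xdh. Trim54 rested on the fewest reads, 5 to 35 per library, and Xdh on 22 to 118. Reads per library numbered 50 to 126 for BC006965, 80 to 380 for Megf6, 101 to 343 for Bche and 175 to 1076 for Igfn1. Counting error alone therefore makes single-library values of Trim54 coarse.

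**Figure D1:**
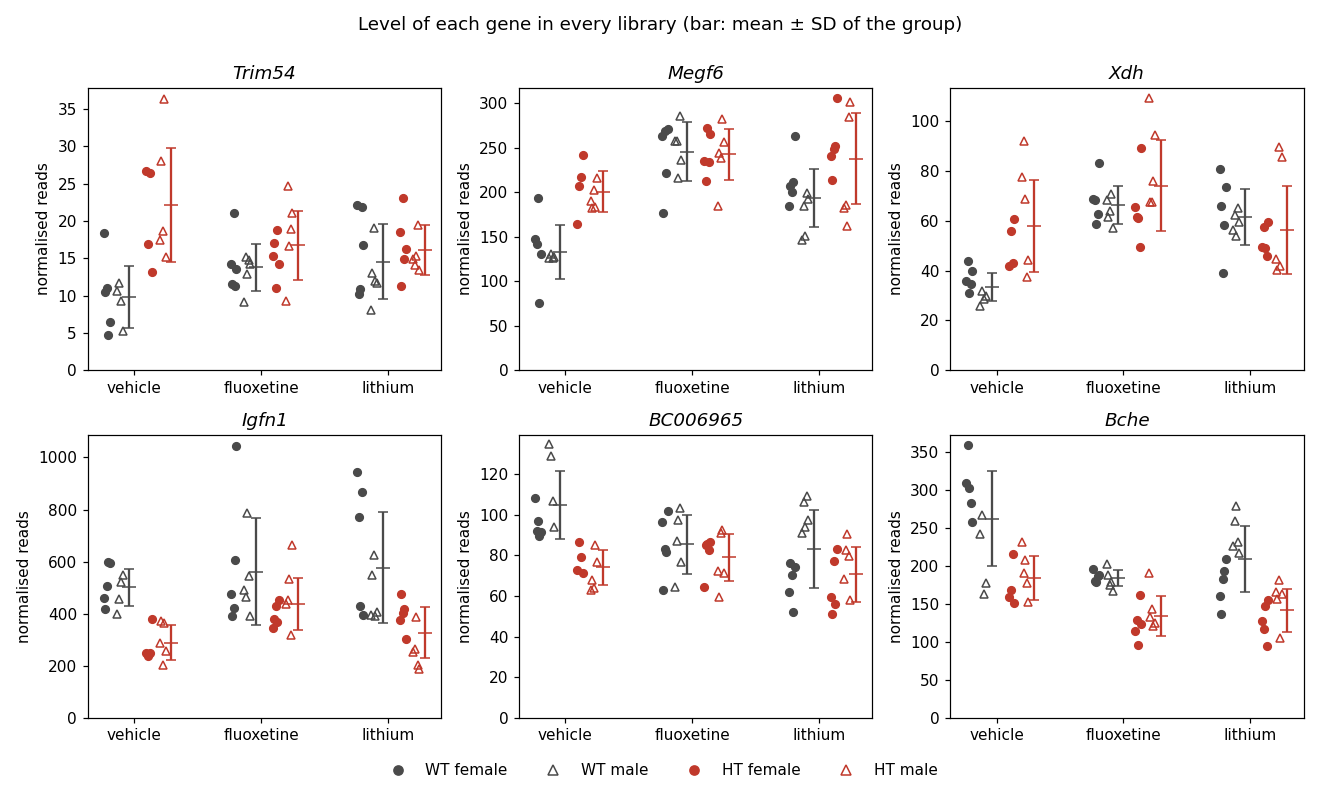
Normalised reads (vertical axes, from 0) of the 6 genes in each library under vehicle, fluoxetine and lithium (horizontal axes), with WT in grey, HT in red, females filled and males as open triangles; bars are the mean ± SD over both sexes. Under vehicle, the arm that chose the genes, HT and WT libraries do not overlap for Igfn1 and BC006965, nor for 0.0661% of all genes tested. The mean of Bche is lower in HT with each drug.

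Under vehicle, the arm that selected the genes, HT minus WT differences on the log2(value + 1) scale were 1.12 for Trim54, 0.73 for Xdh, 0.62 for Megf6, -0.46 for Bche, -0.49 for BC006965 and -0.81 for Igfn1. By limma with an adjusted p under 0.05, 8 of 16632 genes were called (0.0481%), 5 of them among the 6, which follows from the choice. With 1 library left out, Igfn1 was still called in 2 of 18 fits, BC006965 in 1, Xdh in 6 and Trim54 and Megf6 in 17 each. These fits reuse the libraries that chose the genes, so nothing is read from calls that were kept. Arid1b and Smad3 (0.22) were also called. Igfn1 and BC006965 stood just inside (adjusted p = 0.0488 each). Dcbld1 (-0.27), Cd6 (-0.82) and Nrros (0.45) stood just outside (adjusted p = 0.0859 each). Bche was not called over both sexes (adjusted p = 0.0943, place 14 by p). In the same fit Bche was called in vehicle females alone (limma adjusted p = 0.0291) and not in vehicle males (adjusted p = 0.9595). Xdh was called in vehicle males alone (limma adjusted p = 0.0348) and not in vehicle females. These calls by sex use the values that chose the genes and are a description, not a test. How Bche came to be listed is not stated, so its drug libraries may not be wholly independent of its choice. HT and WT vehicle libraries did not overlap for 2 of the 6 genes, Igfn1 and BC006965, and for 0.0661% of all genes tested, and nothing is read from this since the same values chose the genes.

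Among drug-treated libraries, Bche and Igfn1 were the members whose genotype difference passed the test. Bche, the esterase gene, was lower in HT with fluoxetine and with lithium, to 0.717 and 0.677 of the WT level. Igfn1 was lower in HT with lithium, to 0.576 of the WT level, and over both drugs. Trim54, Megf6, Xdh and BC006965 did not pass in either drug or over both. With fluoxetine 1 of the 6 genes was called, against 0.764% of all genes tested, and with lithium 2 of 6, against 0.92%. Over both drugs 2 of 6 were called, against 4.86%. The median log2 difference over all genes was 0.0027 for both drugs together, close to 0. Leaving out 1 library moved the count over all genes from 127 to between 41 and 431 with fluoxetine and from 153 to between 58 and 334 with lithium, and the calls of Bche and Igfn1 were kept each time.

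**Figure D2:**
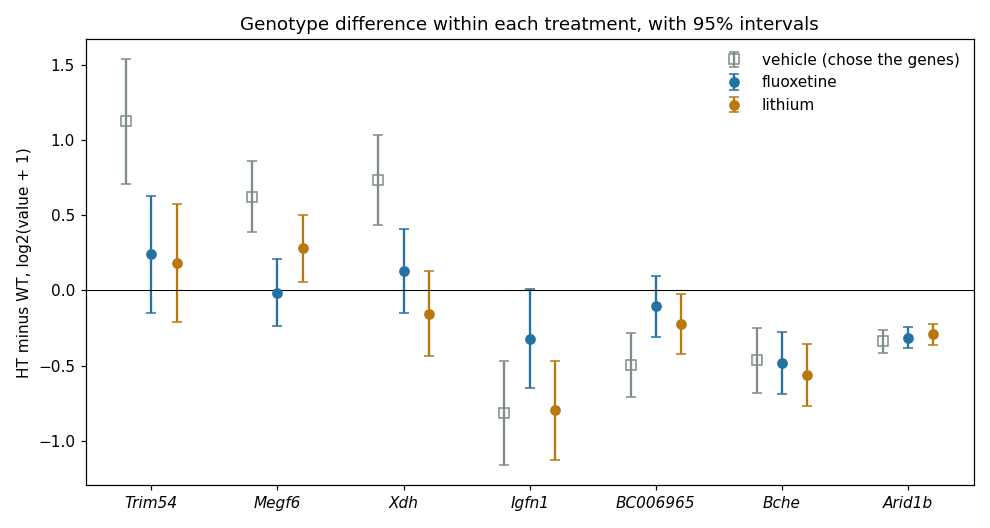
HT minus WT difference (vertical axis, log2(value + 1)) of the 6 genes and Arid1b with 95% intervals, under vehicle (open grey squares, the values that chose the genes), fluoxetine (blue) and lithium (orange). Intervals of Bche lie below 0 with both drugs, as does that of Igfn1 with lithium; the intervals of Trim54 and Xdh include 0 with both drugs.

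Bche encodes butyrylcholinesterase, a secreted esterase that is found in serum and in brain. With fluoxetine, HT libraries held 95.1 to 191 normalised reads (median 126) and WT libraries 166 to 202 (median 183). The 10 WT libraries were close together (183.8 ± 10.4, SD) and the 10 HT libraries lower and wider (133.5 ± 26.6, SD). Of the HT libraries, 9 lay below the lowest WT library, the exception being HT fluoxetine male replicate 1 at 190.7. Bche fell by 0.48 on the log2 scale in HT (SE 0.10, 95% interval -0.69 to -0.27, limma adjusted p = 0.0126). No member's libraries were fully separated with fluoxetine, where 0.0782% of all genes were.

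With lithium, HT libraries held 94.3 to 181 normalised reads of Bche (median 151) and WT libraries 137 to 278 (median 213). All 10 HT libraries were below the WT median, and 4 were below the lowest WT library. Bche fell by 0.56 (SE 0.10, 95% interval -0.77 to -0.36, limma adjusted p = 0.00211). Full separation was again seen for none of the 6 genes with lithium and for 0.00601% of all genes. Over both drugs the fall was 0.52 (SE 0.072, adjusted p = 5.89e-06), the sixth smallest p of all genes tested. Under vehicle, by description, HT libraries held 151 to 231 (median 177) and WT libraries 163 to 359 (median 266).

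Bche kept its call with fluoxetine, with lithium and over both drugs in all 12 alternatives run. It also kept it with any 1 library left out, with adjusted p between 0.0023 and 0.034 for fluoxetine. Without the 3 libraries set apart above, it fell by 0.53 with fluoxetine (adjusted p = 0.0018) and by 0.52 with lithium (adjusted p = 0.00341). Bche has a transcript GC content of 38.3%, the lowest of the 6 genes, and GC slopes differed between libraries. With the GC slope of each library in the fit, it fell by 0.51 over both drugs (adjusted p = 1.17e-06). Oligodendrocyte markers had a median difference of -0.47 in the same comparison, with none of 6 called and none at 0 in any library. Their sum ranged from 34230 to 149600 in HT lithium libraries and from 68890 to 217700 in WT lithium libraries. With their sum in the fit, Bche fell by 0.60 over both drugs (adjusted p = 3.13e-07). In bulk tissue, fewer cells of a type and less RNA per cell cannot be told apart.

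In order of mean level, Bche ran from WT vehicle (262 ± 62.1, SD, n = 9), WT lithium (209.1 ± 43.2, n = 10), WT fluoxetine (183.8) and HT vehicle (183.7 ± 29.1, n = 9) to HT lithium (141.1 ± 28.7, n = 10) and HT fluoxetine (133.5). Neighbours in that order differed by less than the larger of their SDs, except HT vehicle and HT lithium (42.6 apart). HT vehicle and WT fluoxetine libraries had close means, though their GC slopes differed (medians of -0.0996 and 0.0958). Levels with a drug and with vehicle were not tested against each other, since the vehicle libraries selected the genes.

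Igfn1 encodes a Z-disc associated protein with immunoglobulin-like and fibronectin type III domains. With lithium, HT libraries held 189 to 476 normalised reads (median 338) and WT libraries 393 to 943 (median 489). All 10 HT libraries were below the WT median, and 7 were below the lowest WT library. The log2 difference of Igfn1 was -0.80 (SE 0.16, 95% interval -1.12 to -0.47, limma adjusted p = 0.00705). With fluoxetine, HT libraries held 318 to 662 (median 434) and WT libraries 390 to 1043 (median 483). Here the groups overlapped more, and the difference of -0.32 (SE 0.16, 95% interval -0.65 to 0.0066) did not pass (adjusted p = 0.346). Over both drugs Igfn1 fell by 0.56 (SE 0.11, adjusted p = 0.00236).

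The difference of Igfn1 between genotypes was 0.48 less negative with fluoxetine than with lithium (SE 0.23, 95% interval 0.016 to 0.94), which did not pass over all genes (limma adjusted p = 0.557). Its fall with lithium kept its call with any 1 library left out. It was lost when the lithium libraries were fitted alone (-0.80, adjusted p = 0.0527). Without the 3 libraries set apart, it was 0.76 lower with lithium (adjusted p = 0.0157) and 0.53 lower over both drugs (adjusted p = 0.00372).

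Within groups (after subtracting the mean of each of the 12 groups), Igfn1 varied with more than 1 marker sum on the log2 scale. Pearson's r was 0.642 with the excitatory and -0.539 with the inhibitory neuron markers. It was largest in size, and inverse, with the markers of olfactory areas (-0.732). The 3 WT lithium libraries with the highest Igfn1 (771.1, 867.4 and 942.7, all female) lay among those with the least of these markers. The marker sum ranged from 406 to 9694 in HT and 347 to 9216 in WT fluoxetine libraries, and from 400 to 7489 in HT and 372 to 8133 in WT lithium libraries. Of the 6 markers, Eomes and Tbx21 were at 0 in at least 1 library. None of the 6 was called for genotype, with medians of -1.38 with fluoxetine and 0.18 with lithium. With the marker sum in the fit, an alternative added after the data were seen, Igfn1 was 0.49 lower with fluoxetine (adjusted p = 0.0123), 0.79 lower with lithium (adjusted p = 1.83e-05) and 0.64 lower over both (adjusted p = 2.5e-07).

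**Figure D3:**
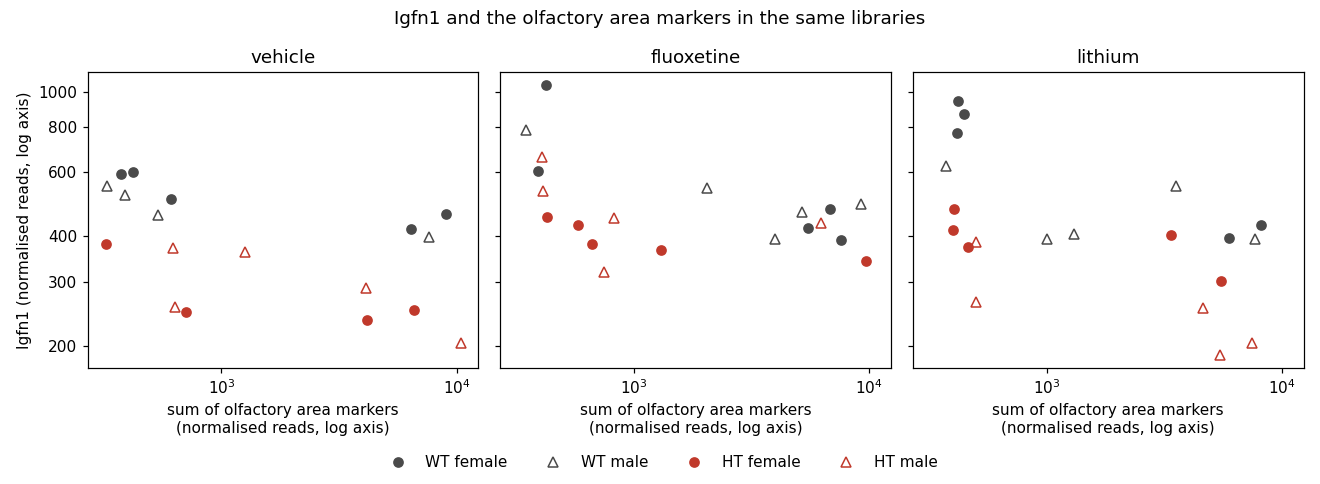
Igfn1 (vertical axis, normalised reads, log axis) against the sum of 6 olfactory area markers (horizontal axis, normalised reads, log axis) in each library, by treatment, with WT in grey, HT in red, females filled and males as open triangles. Libraries with a low marker sum tend to have the higher Igfn1, and HT libraries lie below WT libraries of a like marker sum in most places.

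In order of mean level, Igfn1 ran from WT lithium (577.1 ± 214, SD, n = 10), WT fluoxetine (561.5 ± 207, n = 10) and WT vehicle (501.0 ± 72.3, n = 9) to HT fluoxetine (437.3 ± 101, n = 10), HT lithium (327.1 ± 97.8, n = 10) and HT vehicle (288.3 ± 66.2, n = 9). The 3 WT groups came before the 3 HT groups. Only the step from HT fluoxetine to HT lithium (110.2) exceeded the larger SD of its neighbours. HT vehicle libraries held 204 to 380 (median 255) and WT vehicle libraries 400 to 600 (median 507). They did not overlap, which held for 0.0661% of all genes tested, and the same values chose the gene.

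**Figure D4:**
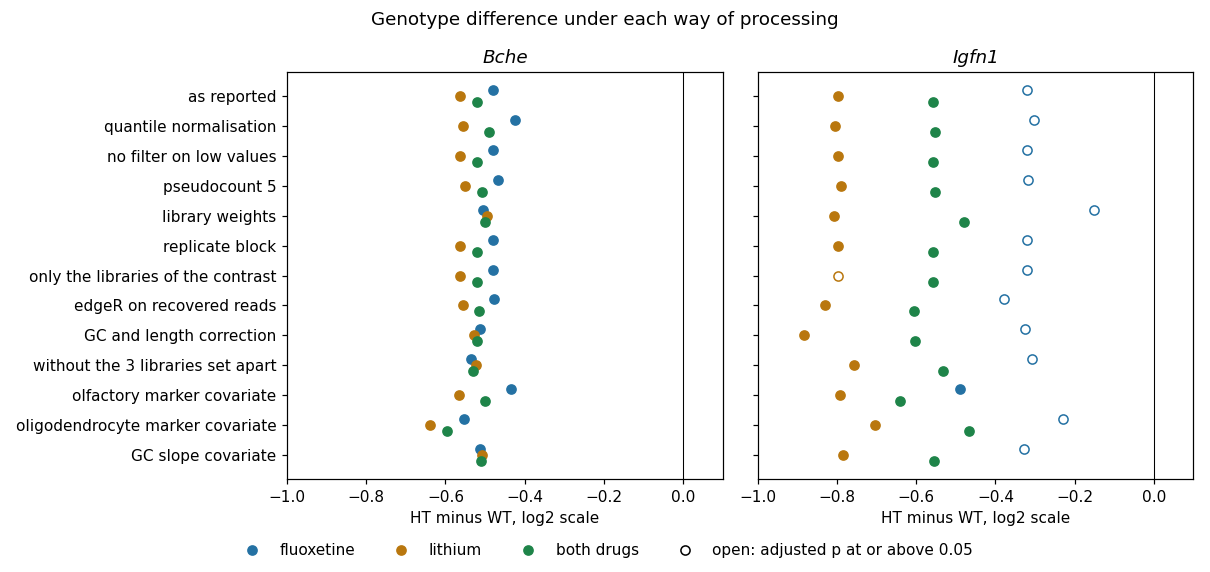
HT minus WT difference (horizontal axis, log2 scale) of Bche (left) and Igfn1 (right) under each way of processing (rows), with fluoxetine (blue), lithium (orange) and both drugs (green); filled points have an adjusted p under 0.05. Bche is filled in every row, and Igfn1 is open for fluoxetine except with the olfactory marker covariate and for lithium where only its own libraries were fitted.

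BC006965, the non-coding RNA, had HT libraries of 63.2 to 86.8 normalised reads (median 72.8) and WT libraries of 89.4 to 135 (median 96.9) under vehicle. With fluoxetine, HT libraries held 59.4 to 92.4 (median 84.0) and WT libraries 63.1 to 103 (median 85.3). With lithium, HT libraries held 51.4 to 90.6 (median 72.9) and WT libraries 52.0 to 109 (median 83.5). Both drug groups overlapped widely. The differences of -0.11 (SE 0.10, limma adjusted p = 0.649) with fluoxetine, -0.22 (SE 0.10, adjusted p = 0.276) with lithium and -0.16 (SE 0.071, 95% interval -0.31 to -0.022, adjusted p = 0.175) over both drugs did not pass. With the oligodendrocyte marker sum in the fit, the value over both drugs was -0.25 (adjusted p = 0.0216), and without the 3 libraries set apart it was -0.12 (adjusted p = 0.288). WT vehicle had the highest mean (104.8 ± 16.9, SD, n = 9), and its distance to WT fluoxetine (85.5 ± 14.5, n = 10) exceeded the larger SD. No other neighbours in the order did, down to HT lithium (70.7 ± 13.7, n = 10).

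The annotated span of BC006965 begins 248 bases from Sox9, a transcription factor gene of glia and neural stem cells on the opposite strand (112782224 to 112787760). Sox9, named for its position after its values were seen, differed by 0.19 over both drugs (limma adjusted p = 0.0728) and by -0.25 under vehicle (adjusted p = 0.479). Neither passed.

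Trim54, the muscle ubiquitin ligase gene, had HT libraries of 13.1 to 36.3 normalised reads (median 18.6) and WT libraries of 4.70 to 18.4 (median 10.5) under vehicle. With fluoxetine, HT libraries held 9.26 to 24.7 (median 16.9) and WT libraries 9.19 to 21.0 (median 13.9). With lithium, HT libraries held 11.3 to 23.0 (median 15.1) and WT libraries 8.06 to 22.2 (median 12.5). The genotypes overlapped with both drugs, though 8 of 10 HT libraries with fluoxetine and 9 of 10 with lithium were above the WT median. The differences were 0.24 with fluoxetine (SE 0.19, limma adjusted p = 0.583), 0.18 with lithium (SE 0.19, adjusted p = 0.703) and 0.21 over both (SE 0.14, 95% interval -0.064 to 0.49, adjusted p = 0.42). Without the 3 libraries set apart they were 0.34, 0.22 and 0.28, and none passed. HT vehicle had the highest mean level (22.1 ± 7.64, SD, n = 9) and WT vehicle the lowest (9.76 ± 4.14, n = 9), with the 4 drug groups between (13.8 to 16.7). No neighbours in this order differed by more than the larger SD.

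Megf6, with its EGF-like repeats, had HT libraries of 165 to 242 normalised reads (median 203) and WT libraries of 75.3 to 194 (median 130) under vehicle. With fluoxetine, HT libraries held 184 to 282 (median 241) and WT libraries 177 to 286 (median 257). With lithium, HT libraries held 162 to 306 (median 245) and WT libraries 146 to 263 (median 195). HT and WT libraries covered nearly the same range with fluoxetine, and 7 of 10 HT libraries lay above the WT median with lithium. The difference was -0.01 with fluoxetine (SE 0.11, limma adjusted p = 0.968), a sign that turned in 4 of the alternatives, and 0.28 with lithium (SE 0.11, 95% interval 0.057 to 0.50, adjusted p = 0.207). Over both drugs it was 0.13 (SE 0.078, adjusted p = 0.365). These values were 0.03, 0.22 and 0.13 without the 3 libraries set apart, and none passed. WT vehicle held the lowest mean (133.1 ± 30.6, SD, n = 9), more than the larger SD below WT lithium (193.8 ± 32.7, n = 10). The other groups, from HT vehicle (200.6) to WT fluoxetine (245.5), did not differ from their neighbours by more than the larger SD.

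Xdh, the last enzyme of purine breakdown in the mouse before uricase, had HT libraries of 37.3 to 91.8 normalised reads (median 55.9) and WT libraries of 25.9 to 43.9 (median 31.7) under vehicle. With fluoxetine, HT libraries held 49.5 to 109 (median 67.6) and WT libraries 57.2 to 83.3 (median 66.1). With lithium, HT libraries held 40.1 to 89.6 (median 49.2) and WT libraries 39.0 to 80.6 (median 60.9). HT libraries spread wider than WT libraries with both drugs, and 8 of 10 HT libraries were below the WT median with lithium. The differences were 0.13 with fluoxetine (SE 0.14, limma adjusted p = 0.698), -0.15 with lithium (SE 0.14, adjusted p = 0.645) and -0.01 over both (SE 0.099, 95% interval -0.21 to 0.19, adjusted p = 0.965). Without the 3 libraries set apart they were 0.08, -0.21 and -0.06, and none passed. WT vehicle, one of the groups that chose the gene, had the lowest mean (33.5 ± 5.70, SD, n = 9), 22.8 below HT lithium (56.3 ± 17.6, n = 10), which exceeded the larger SD. All other neighbours, up to HT fluoxetine (74.1 ± 18.2, n = 10), lay closer than that.

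The choice of the genes favours an extreme place of the vehicle groups in each of these orders, so the orders are a description. GC slopes also differed between the arms. They ran from -0.164 to -0.016 in HT and from -0.187 to -0.0339 in WT vehicle libraries. Their medians were 0.0677 in HT and 0.0958 in WT with fluoxetine, and 0.141 and 0.016 with lithium. Over the 58 libraries the slope had an r of -0.61 with Bche and 0.676 with Megf6. The part of the slope in these orders was not tested. Whether the genotype difference itself changed between vehicle and drug was not tested, since the vehicle values selected the genes.

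The genotype difference did not pass as differing between the drugs for any of the 6 genes, nor for any of the 16632 tested (0%). In that comparison limma gave 1462 genes below 0.05 before adjustment, and edgeR also called 0, with 1493 below 0.05. The value of Igfn1 is given above. For the other genes the difference of differences, fluoxetine minus lithium, ran from -0.29 for Megf6 (95% interval -0.61 to 0.021) to 0.28 for Xdh (95% interval -0.11 to 0.68). These intervals are wide beside the effects.

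The levels themselves differed between the drugs for 1 of the 6 genes, against 20.4% of all genes, so the members did not stand out here. Xdh rose by 0.27 with fluoxetine over lithium (SE 0.099, limma adjusted p = 0.0488). That call was lost in 5 of 12 alternatives, among them edgeR (0.24, adjusted p = 0.0812) and a correction for GC content and length (0.20, adjusted p = 0.176). It was also lost without any 1 of 27 of the 40 libraries, at adjusted p up to 0.0907. Xdh was 0.26 higher without the 3 libraries set apart (adjusted p = 0.0401). Megf6 was 0.20 higher with fluoxetine and did not pass (adjusted p = 0.0657).

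In each sex the genotype difference under vehicle had the same sign for all 6 genes, which the choice of the genes favours. Bche differed by -0.80 in females (SE 0.15) and by -0.13 in males (SE 0.15), and the WT males were wide (163 to 266, n = 4). If Bche was listed for its values in females, that choice favours this gap. Xdh differed by 0.42 in females (SE 0.21) and 1.04 in males (SE 0.21), and BC006965 by -0.30 (SE 0.15) and -0.69 (SE 0.15). Trim54 (1.03 and 1.21), Megf6 (0.64 and 0.61) and Igfn1 (-0.90 and -0.72) were closer. No test of a sex difference was made on these vehicle values.

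With fluoxetine Bche differed by -0.59 in females and -0.37 in males, and with lithium by -0.46 and -0.67 (SE 0.14 each). Igfn1 differed by -0.48 and -0.16 with fluoxetine and by -0.71 and -0.88 with lithium (SE 0.23 each). Both genes were thus lower in HT in each sex with each drug. BC006965 differed by -0.06 and -0.15 with fluoxetine and by -0.04 and -0.40 with lithium (SE 0.14 each). Trim54 differed by 0.10 and 0.38, and by 0.07 and 0.30 (SE 0.27 each). Megf6 differed by 0.03 and -0.06, and by 0.24 and 0.32 (SE 0.16 each), and Xdh by -0.08 and 0.34, and by -0.24 and -0.07 (SE 0.20 each). Signs differed between the sexes for Megf6 and Xdh with fluoxetine. HT lithium males 4 and 5 had GC slopes of 0.141 and 0.153, and all other lithium males lay at -0.1 or below. Both libraries held more Megf6 (284.3 and 301.6 normalised reads) and less Igfn1 (203.7 and 188.9) than the other HT lithium males. The part of the slope in the lithium differences of males was not tested.

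**Figure D5:**
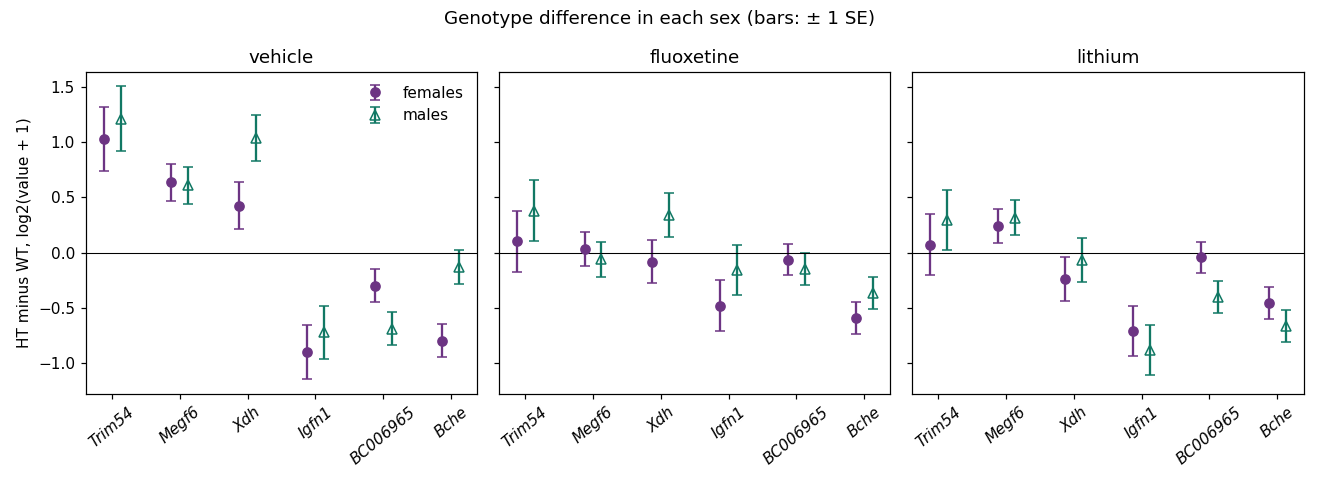
HT minus WT difference (vertical axis, log2(value + 1)) in females (filled circles) and males (open triangles) under each treatment, with bars of 1 SE. Bche and Igfn1 lie below 0 in both sexes with each drug. Under vehicle, the arm that chose the genes, Bche has its larger difference in females.

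Over both drugs, the genotype difference did not pass as differing between the sexes for any of the 6 genes or for any gene tested (0%). Before adjustment limma gave 753 genes below 0.05, and edgeR, which also called 0, gave 845. The male minus female value was 0.01 for Bche (95% interval -0.28 to 0.30) and 0.08 for Igfn1 (95% interval -0.39 to 0.54). It was 0.30 for Xdh (95% interval -0.10 to 0.70), 0.25 for Trim54 (95% interval -0.30 to 0.80) and -0.22 for BC006965 (95% interval -0.51 to 0.062).

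The levels of 2 of the 6 genes differed between male and female drug-treated libraries, against 32.3% of all genes. The members thus did not stand out from all genes tested in this comparison. Bche was higher in males by 0.22 (SE 0.072, limma adjusted p = 0.0155) and BC006965 by 0.18 (SE 0.071, adjusted p = 0.044). With lithium, WT males held 90.9 to 109 normalised reads of BC006965 and WT females 52.0 to 76.1. HT lithium males held 57.95 to 90.6 and HT females 51.4 to 83.0. With fluoxetine, WT males held 64.3 to 103 and WT females 63.1 to 102, and HT males 59.4 to 92.4 and HT females 64.3 to 86.4. WT lithium males held 217 to 278 of Bche and females 137 to 209. The sexes overlapped in the other groups. HT lithium males held 104.6 to 181.1 of Bche and females 94.3 to 155.4. With fluoxetine, WT males held 166.1 to 202.1 and WT females 178.6 to 195.4, and HT males 121.2 to 190.7 and HT females 95.1 to 162. The GC slope also differed by sex in the lithium libraries, with a median of -0.127 in males and 0.156 in females, and less in the fluoxetine libraries (0.057 and 0.0958). Among lithium males, HT replicates 4 and 5 were the exceptions (0.141 and 0.153). With the GC slope in the fit, the sex difference was 0.04 for Bche (adjusted p = 0.858) and 0.13 for BC006965 (adjusted p = 0.465). BC006965 kept its call with 1 library left out in 21 of 40 fits, and Bche in all 40. Without the 3 libraries set apart, Bche was 0.16 higher in males (adjusted p = 0.0706) and BC006965 0.20 (adjusted p = 0.0317).

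The other genes of each member's setting were taken from lists counted here without the members. Over both drugs, 4.86% of all genes tested were called for genotype, 500 higher and 309 lower. Of the 20 other purine breakdown and salvage genes tested, none was called for genotype over both drugs (median log2 difference -0.019, against 0.0027 over all genes), and the smallest p values were those of Abcg2, a urate exporter (-0.14, limma adjusted p = 0.0708), and Aox4, an aldehyde oxidase (-0.20, adjusted p = 0.27). Of 21 other cholinergic genes 1 was higher and 1 lower (median -0.021). Chrm4, an inhibitory muscarinic receptor, rose by 0.26 (adjusted p = 0.0118), and Lynx1, which restrains nicotinic receptors, fell by 0.25 (adjusted p = 0.0497).

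Of 18 other sarcomere and Z-disc genes 3 were higher and 1 lower in HT over both drugs (median 0.013), against 4.86% of all genes called in either direction. Neb (nebulin of the thin filament) rose by 0.37 (limma adjusted p = 0.0118) and Mypn (myopalladin) by 0.26 (adjusted p = 0.0326). Ky, a muscle protein, fell by 0.28 (adjusted p = 0.0471). The rises of Neb and Mypn were opposite to the fall of Igfn1, and the fall of Ky had the same direction. Of 4 skeletal muscle markers tested, Myh4 rose by 0.38 (adjusted p = 0.0457). Their sum lay between 170 and 495 normalised reads in all libraries, with none at 0. Of 8 other genes around the muscle RING-finger ligases none was called (median -0.026; Ube2d1 -0.09, adjusted p = 0.101; Fbxo32 -0.22, adjusted p = 0.11). The 11 other genes with many EGF-like domains gave none either (median -0.023; Scarf2 0.11, adjusted p = 0.511; Scarf1 0.10, adjusted p = 0.527).

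Of 29 BAF complex genes other than Arid1b 3 were higher and none lower over both drugs (median 0.022), against 4.86% of all genes called in either direction. Nothing is read from so small a count. Smarcd3 rose by 0.12 (limma adjusted p = 0.0128), Arid1a, the paralogue of Arid1b, by 0.10 (adjusted p = 0.0245) and Smarcc2 by 0.08 (adjusted p = 0.0309).

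Among 13 lists of cell type and tissue markers, the genes called over both drugs were S100b, an astrocyte calcium-binding protein (fell by 0.25, limma adjusted p = 0.000398), and Myh4. List medians ran from -0.47 (oligodendrocyte) and -0.46 (olfactory area) to 0.15 (striatum), and the other 10 lay between -0.13 and 0.11. Bche and Igfn1 are no markers of these lists, and the part of cell numbers in their levels was not tested beyond the fits with marker sums above.

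For each gene the 3 most similar of all genes tested were taken by Pearson's r of log2(value + 1) over the 58 libraries, which share depth, GC slope and treatment. These libraries include the vehicle groups that chose the genes, so r within groups (after subtracting the mean of each of the 12 groups) follows each value. For Bche they were Hsdl2 (0.765, within groups 0.330), Akr1c14 (0.743, within groups 0.262) and Zfp946 (0.741, within groups 0.496). For Igfn1 they were Arhgef25 (0.819, within groups 0.717), Olfr287 (0.740, within groups 0.443) and Mei1 (0.732, within groups 0.530). For Xdh they were Map3k6 (0.854, within groups 0.748), Hif3a (0.809, within groups 0.603) and Atp10a (0.807, within groups 0.637). Megf6 came closest to Rnf123 (0.781, within groups 0.528), Vwf (0.776, within groups 0.573) and Lamc3 (0.776, within groups 0.592). BC006965 came closest to Gucy1a1 (0.682, within groups 0.551), Hace1 (0.650, within groups 0.479) and C1galt1 (0.608, within groups 0.394). Trim54, the gene with the fewest reads, came closest to Rab3d (0.532, within groups 0.524), Coq8b (0.513, within groups 0.360) and Farsa (0.506, within groups 0.527). Among the 6 genes themselves, the largest values were -0.596 for Megf6 and Bche and 0.550 for Megf6 and Xdh. Within groups these became -0.110 and 0.0498.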

How the data were processed

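The authors deposited 1 table of 18088 genes by 58 libraries, whose values are a normalised signal, that is, gene read counts divided by 1 size factor for each library. Per the submitters' processing notes they used Salmon 0.11.2 and DESeq2 1.19.11 in R 3.6.0 on GRCm38. Not given in the sources used here are the strand setting and the step from transcripts to genes. Multiplied back, 100% of values were within 0.001 read of a whole number. In 4 libraries the factor lay within 0.5% of 1, where the spacing alone does not settle it.

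Columns were matched to groups by library names in the labels. Differences were tested with limma 3.58.1 (R 4.3.3; trended, robust) on log2(value + 1), in 1 fit of 12 group means over the 16632 genes with a mean of at least 10. Benjamini-Hochberg adjustment ran over all of these genes within each comparison, and an effect for both sexes is the average of the effects in females and in males. Fits were tested on simulated data. Intervals are at 95%.

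The members and gene lists were chosen with earlier results of these data known. Named genes were the members, Arid1b, the other genes called or next to the threshold under vehicle, up to 2 genes per list with the smallest p over both drugs, list genes that passed there, and the 3 genes most like each member; some genes under this rule are not reported here. Symbols came from GENCODE M21 (18077 of 18088 genes). Sequences came from RefSeq.

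The alternatives were a pseudocount of 5, quantile normalisation, library weights, omission of the filter, a block for shared replicate numbers, a fit restricted to the libraries compared, edgeR 4.0.16 on the recovered reads (17991 genes), a correction for GC content and length, and leaving out 3 libraries or each library in turn. Fits with the olfactory marker sum, the oligodendrocyte marker sum or the GC slope (the change of log2 expression per 10 points of transcript GC) as a covariate were added after seeing the data.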

Additional observations from a re-analysis of the deposited data

Results flagged for a closer look

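Single libraries were compared with the rest of their group for the 6 genes and Arid1b, in 84 groups of 4 or 5 libraries. Chance alone flags about 1 in 20 such groups, and 2 were found. BC006965 in HT fluoxetine female replicate 1 stood at 64.29 normalised reads, below the other 4 libraries of its group (82.7 to 86.43). Igfn1 in HT vehicle female replicate 4 stood at 379.9 normalised reads, above the other 3 libraries of its group (235.3 to 250.4), and still below every WT vehicle library.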

How the results depend on the processing

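Bche kept its call in all 12 alternatives and in every fit with 1 library left out, for fluoxetine (-0.55 to -0.43), lithium (-0.64 to -0.50) and both drugs (-0.60 to -0.49). Igfn1 kept it over both drugs in all 12 (-0.64 to -0.47) and lost it with lithium in 1, the fit of lithium libraries alone. The cause of the changes below was not tested.

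Whether replicate numbers pair the libraries was not settled. The mean residual correlation was 0.0235 for the same number and -0.00576 for other numbers, and 20 of 58 libraries matched their own number best. How many would do so by chance was not computed. For the vehicle WT males, titles and library names in the labels carry different numbers, and the titles were used. With the replicate block the genes called numbered 5 under vehicle, 151 with fluoxetine, 162 with lithium, 900 over both drugs, 3531 between drugs and 5517 between sexes, and no member's call with a drug changed.

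The 8 genes called under vehicle became 5 without a filter, 75 with library weights, 17 with only those libraries fitted, 5 after the GC and length correction, 17 without the 3 libraries set apart, 16 with the olfactory and 17 with the oligodendrocyte marker covariate. The 127 with fluoxetine became 2210 with weights, 40 with only those libraries, 265 after the GC and length correction, 557 without the 3 libraries, 416 with the olfactory covariate and 288 with the GC slope. The 153 with lithium became 447, 56, 364 (without the 3 libraries), 368 (olfactory) and 349 (GC slope). The 809 over both drugs became 2228, 528, 1676, 1520 and 1577 in the same order. The 0 genes whose genotype difference differed between drugs became 39 with weights and 1 with the oligodendrocyte covariate. The 3397 between drugs became 5835 with weights, and the 5374 between sexes 1286 after the GC and length correction and 990 with the GC slope.

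With 1 library left out, the counts ranged from 1 to 12 under vehicle, 41 to 431 with fluoxetine, 58 to 334 with lithium, 567 to 1401 over both drugs (1401 without HT fluoxetine male replicate 1) and 0 to 16 for the difference between drugs (16 without HT lithium male replicate 3, 1 without HT lithium female replicate 1). With fluoxetine the count was 45, 76, 431, 191 and 73 without HT females 2 and 4 and HT males 1, 2 and 4, and 67, 194 and 41 without WT females 2 and 4 and WT male 1. With lithium it was 93, 76, 101 and 81 without HT females 1, 3, 4 and 5, 334 and 58 without HT males 3 and 4, 72, 92 and 93 without WT females 2, 4 and 5, and 65 and 82 without WT males 4 and 5. Under vehicle it was 1 without WT male 4, at most 5 without any of 12 further libraries.

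Signs turned for the following values, none of which had passed. Megf6 with fluoxetine was 0.020 after quantile normalisation, 0.032 without the 3 libraries, 0.0054 with the olfactory covariate and 0.029 with the GC slope (-0.067 to 0.032 with 1 library left out). Xdh over both drugs was 0.012 after quantile normalisation, 0.0032 by edgeR and 0.037 with the oligodendrocyte covariate (-0.053 to 0.018). The difference between drugs in the genotype effect of Bche was -0.011 with weights, -0.011 without the 3 libraries and -0.0045 with the GC slope, and that of Trim54 ranged from -0.017 to 0.16. The difference between sexes in the genotype effect was 0.025 by edgeR for Megf6 (-0.070 to 0.042). For Bche it was -0.030 after quantile normalisation, -0.038 with weights and -0.11 without the 3 libraries (-0.048 to 0.073), and for Igfn1 it ranged from -0.040 to 0.16. Trim54 between drugs was 0.084 with weights, 0.0088 after the GC and length correction and 0.030 without the 3 libraries (-0.039 to 0.049). Between sexes, after the GC and length correction and with the GC slope, Trim54 was 0.073 and 0.037 and Megf6 0.067 and 0.13, and Xdh was -0.0075 with weights.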
